A study of Mus musculus with 18 samples.

Results

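The genes of glycolysis, its isozymes and glucose transport were followed across 5 kinds of mouse immune cell and whole brain. The set was 34 listed genes, taken wherever the platform annotation gave them a probe in the deposited signal table. A probe was found for 30 of the 34, among 19057 genes with a probe in all, and 51 probes carried these 30 genes. Hk2, Gpi1, Eno1 and Pfkfb1 had no probe under their symbol and were not analysed here. A gene was tested where a probe was detected (detection p under 0.01) on at least 3 of the 18 arrays, which left 27 of the 30 genes. Pklr and Slc16a1 were detected on 0 arrays and Pfkfb3 on 1, so these 3 genes were not tested, and an undetected probe says nothing about its gene. Of the 27 genes tested, 18 were detected on all 18 arrays. Hk3 passed the detection requirement through the dendritic cell arrays alone, and Pgam2 and Pdk4 through the brain arrays alone. Pdk2 passed it through the 3 brain arrays too, with 1 further array. For each of these 4, a test of the group that it passed through gives no support.

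The groups were naive CD4 T cells (resting helper cells before antigen contact), their Th1 and Th2 progeny (helper subsets known for interferon gamma and interleukin 4), B cells, dendritic cells (antigen-presenting cells) and whole brain, with 3 biological replicates of each. All were labelled as strain C57/BL6, the immune samples also as wt and as Male+female, and the brain samples as Male. The sources used here give no ages, culture conditions or purity of the cells. The assay was the Illumina BeadChip, which reads labelled RNA by hybridisation to probes on beads. Probe intensities were background-corrected, quantile-normalised and put on a log2 scale, on which 1 unit is a doubling. Undetected probes lay from about 4.2 up to the lowest detected signal of their array. That limit was 4.6 on the brain arrays and 4.98 to 5.71 on the immune arrays. Values below are these log2 signals in replicates 1, 2 and 3 unless another quantity is named, and since probes differ in brightness, levels are compared between samples for 1 gene and never between genes. A gene was counted as higher or lower where limma gave a Benjamini-Hochberg adjusted p under 0.05 over all 12094 genes tested and the log2 fold change was 1 or more in size. Where every array of a group was undetected, the fold is given as a lower bound ("at least").

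Between 12564 and 20497 probes were detected per array, most of them on the brain arrays (at least 20377). Markers of each label were detected on its own arrays: all 5 tested T cell markers on all 9 T cell arrays, all 4 B cell markers on the B cell arrays, all 5 dendritic cell markers on the dendritic cell arrays and all 4 neuron markers on the brain arrays. Of the 5 T cell markers 4 were also detected on all 3 B cell arrays, with a summed signal of 370 to 829 for the list. Their part in the B cell results was not tested. Of the 5 dendritic cell markers 2 were detected on all 3 Th1 arrays, and Batf3 read 9.75 there against 9.68 in dendritic cells. The dendritic cell arrays also carried all 6 tested granulocyte markers, with a summed signal of 37142 to 53795 against 119 to 292 on the naive and 160 to 406 on the B cell arrays. All 6 macrophage markers were detected there too, with a summed signal of 1955 to 3830 against 127 to 316 and 168 to 171. All 3 tested NK cell markers (3476 to 4697, against 471 to 558 on the naive arrays), all 5 T cell markers (2055 to 2813) and 3 of 4 B cell markers (1753 to 3675) were detected on these arrays as well. These signals stand beside every dendritic cell result below, and their part in it was not tested. The 3 erythroid markers tested (of 6 listed) had a summed signal of 13254 to 18998 in brain and 2106 to 10340 in dendritic cells, against 102 to 263 in naive and 274 to 2122 in B cells. The 3 proliferation markers tested (of 6 listed) had a summed signal of 1746 to 1929 in Th1, 1500 to 1654 in Th2 and 1359 to 1813 in dendritic cells, against 131 to 268 in naive and 323 to 520 in B cells. The part of these 2 lists in the T cell, dendritic cell and brain results was not tested. In bulk samples such as these, fewer cells of a type and less RNA per cell cannot be told apart.

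Glycolysis turns glucose into pyruvate in the cytosol and yields ATP without oxygen. Glucose enters through facilitative transporters, is trapped by hexokinase, committed by phosphofructokinase, split by aldolase and carried through the lower steps to pyruvate, which is either reduced to lactate or passed to the mitochondria. Most steps are served by several isozymes, each the product of a gene of its own with its own tissue pattern, and brain is known for the C form of aldolase and the gamma form of enolase (Eno2). Activated T cells are known to raise glucose uptake and lactate output.

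Promoter windows are shown for 5 genes of the set, since genes of glycolysis are known targets of HIF-1, an oxygen-regulated factor, and of Myc. ACGTG, 1 form of the HIF-1 core, and CACGTG, a core of Myc, were searched on both strands. Other forms of these cores were not searched. Each window is the 250 bases before the most upstream start in the RefSeq table (GRCm38.p6), written along the gene's strand. The positions are chrX:106186850-106187099 for Pgk1, chr19:41911621-41911870 for Pgam1, chr4:119108495-119108744 for Slc2a1, chr7:46845554-46845803 for Ldha and chr2:71872974-71873223 for Pdk1, all on the plus strand and upstream of the gene's first exon. Capitals mark ACGTG or its complement CACGT, and every CACGTG holds both.
Pgk1: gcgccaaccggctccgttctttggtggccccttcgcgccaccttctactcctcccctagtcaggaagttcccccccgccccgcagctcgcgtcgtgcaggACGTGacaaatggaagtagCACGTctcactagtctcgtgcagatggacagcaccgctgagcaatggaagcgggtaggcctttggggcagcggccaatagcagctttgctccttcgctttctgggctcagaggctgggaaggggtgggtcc
Pgam1: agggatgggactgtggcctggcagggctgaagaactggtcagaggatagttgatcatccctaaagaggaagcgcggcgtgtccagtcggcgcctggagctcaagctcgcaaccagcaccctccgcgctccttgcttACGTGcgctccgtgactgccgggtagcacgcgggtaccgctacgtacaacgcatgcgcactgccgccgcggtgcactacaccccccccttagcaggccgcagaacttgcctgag
Slc2a1: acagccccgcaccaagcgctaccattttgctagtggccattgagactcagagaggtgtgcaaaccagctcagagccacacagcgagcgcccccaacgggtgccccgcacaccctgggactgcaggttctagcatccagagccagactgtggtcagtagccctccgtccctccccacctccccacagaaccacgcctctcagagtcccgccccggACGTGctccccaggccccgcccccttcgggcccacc
Ldha: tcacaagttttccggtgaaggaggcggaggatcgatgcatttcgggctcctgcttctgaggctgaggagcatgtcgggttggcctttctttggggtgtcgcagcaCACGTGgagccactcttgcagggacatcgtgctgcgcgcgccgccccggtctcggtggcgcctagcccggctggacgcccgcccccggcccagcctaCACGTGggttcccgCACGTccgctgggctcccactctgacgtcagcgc
Pdk1: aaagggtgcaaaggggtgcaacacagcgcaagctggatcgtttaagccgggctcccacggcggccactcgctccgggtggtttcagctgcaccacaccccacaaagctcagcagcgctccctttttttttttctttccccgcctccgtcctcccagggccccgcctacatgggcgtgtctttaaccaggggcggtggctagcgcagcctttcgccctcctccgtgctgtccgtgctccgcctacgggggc
Pgk1, Pgam1 and Slc2a1 were chosen because they are the genes higher in Th1 cells whose window holds ACGTG, Ldha because its window holds the most matches (5, with 2 CACGTG), and Pdk1 because it is the gene that fell most in Th1 cells. Pdk1's window holds neither motif, which says only that these letters are not in it. Among the 29 of 30 members with a promoter entry, 11 windows held ACGTG and 4 held CACGTG. Over all 27025 genes of the table the shares were 16.5% and 6.04%. Of the 12 members higher in Th1 cells 11 had an entry, and 3 windows held ACGTG and 0 held CACGTG, while 1 of the 4 lower ones (Pfkm) held both. A match is a string of letters and not a shown binding site.

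Effector T cells stood apart from naive cells over much of the set. In Th1 cells 12 members were higher and 4 lower than in naive CD4 T cells, and 11 did not pass, so that 59.3% of the members tested were called. Over all genes 28.4% were called in that comparison, 13.0% higher and 15.4% lower. In Th2 cells 13 members were higher and 4 lower, or 63.0% of the 27, where 27.0% of all genes were called (12.6% higher, 14.4% lower). The members' median log2 fold change was 0.80 in Th1 and 0.73 in Th2 cells, against -0.02 and -0.01 over all genes. Of the calls, 12 in Th1 and 10 in Th2 cells held under every alternative processing and with each array left out. Both comparisons share the naive arrays. Among the 13 members with more than 1 probe tested, 41 calls were made over the 7 comparisons, and in 29 of them another probe of the gene did not pass the same way. Values of such probes are given with the genes.

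**Figure D1:**
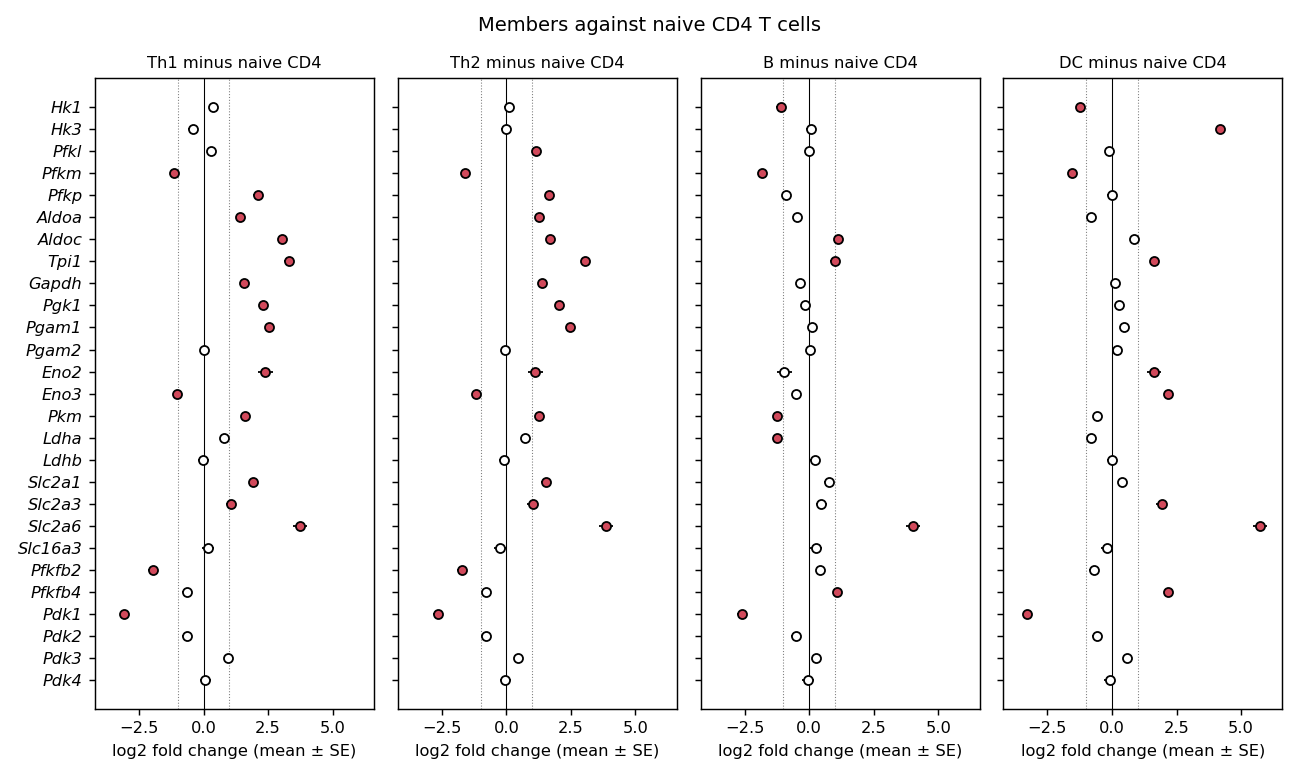
Log2 fold change with its standard error (horizontal axis) of each of the 27 members tested, in Th1, Th2, B and dendritic cells against naive CD4 T cells (panels), with dotted lines at -1 and 1. Filled red points passed both thresholds, values with an undetected group are fitted differences and not bounds, and the row of Pdk1 lies left of 0 in all 4 comparisons with naive cells, from -3.29 to -2.60.

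Fewer members passed in the immune cells that are not T cells. In B cells 4 members were higher and 5 lower (33.3% called, against 14.2% of all genes, 7.30% higher and 6.92% lower), but only 3 of these calls, Slc2a6, Pdk1 and Pfkm, held under every alternative. In dendritic cells 7 were higher and 3 lower (37.0% called, against 23.0% of all genes, 13.2% higher and 9.83% lower). The higher members of both counts include Tpi1, whose probes disagreed in direction. Dendritic cells differed from B cells in 6 members that were higher and 1 that was lower (25.9%, against 14.7% of all genes, 10.2% higher and 4.53% lower). Between Th1 and Th2 cells 2 members passed, both higher in Th1 cells (7.41%, against 4.50% of all genes, 2.18% in that direction). In brain, set against the mean of the 5 immune groups, 11 were higher and 4 lower, or 55.6% of the members where 52.3% of all genes were called (25.7% higher, 26.6% lower), a share near the background. The members' medians in these 5 comparisons were 0.01, 0.10, 0.30, 0.15 and 0.74, against -0.03, -0.05, -0.04, -0.01 and -0.15 over all genes. The 2 dendritic cell counts include Hk3 as higher, which passed the detection requirement through the dendritic cell arrays alone. The brain count includes Hk3 as lower, and as higher Pdk2 and Pdk4, which passed that requirement through the brain arrays. These calls add no support to the counts. The comparisons of B cells and of dendritic cells with naive cells use the same naive arrays as those of Th1 and Th2 cells.

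Glucose transport was led by Slc2a6 (GLUT6, a member of the facilitative sugar transporter family). Its probe read 4.26, 4.32 and 4.74 on the naive arrays, all undetected, and was detected on all 15 others. The values were 8.0, 8.01 and 8.54 in Th1 cells, 7.96, 7.81 and 9.10 in Th2 cells, 8.67, 8.26 and 8.50 in B cells, 9.95, 10.02 and 10.53 in dendritic cells and 7.77, 8.18 and 7.96 in brain. The naive arrays lay far below every other array, and the dendritic cell arrays above all the rest. Against naive cells Slc2a6 was at least 7.85-fold higher in Th1 cells, at least 8.45-fold in Th2 cells, at least 9.61-fold in B cells and at least 31.1-fold in dendritic cells, with limma adjusted p of at most 5.59e-09. Dendritic cells also exceeded B cells, by log2 1.69 ± 0.28 (SE; limma adjusted p = 0.000106). The brain difference from the immune mean did not pass (0.06, adjusted p = 0.792), a mean that holds the undetected naive arrays.

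Slc2a1 (GLUT1, the basal transporter of most cells) read 8.95, 8.95 and 9.15 in naive cells. It reached 10.85, 11.12 and 10.86 in Th1 and 10.52, 10.43 and 10.68 in Th2 cells, above all other arrays. In B cells it read 9.92, 9.72 and 9.66, in dendritic cells 9.64, 9.51 and 9.11 and in brain 10.06, 9.45 and 9.43, the brain arrays overlapping both other groups. The rise over naive cells was log2 1.93 ± 0.17 (3.81-fold) in Th1 and 1.53 ± 0.17 (2.88-fold) in Th2 cells, with limma adjusted p = 4.37e-08 and 8.02e-07. The window printed above places 1 ACGTG 36 bases before its start. Slc2a3 (GLUT3, the high-affinity transporter known from neurons) was highest in dendritic cells, at 10.65, 10.67 and 10.61, and read 10.43, 10.15 and 10.24 in brain. Its naive values were 8.70, 8.67 and 8.79, its B cell values 9.39, 9.25 and 8.95, and the T cell effectors read 9.17, 10.18 and 10.03 (Th1) and 9.51, 9.74 and 9.97 (Th2). Dendritic cells exceeded naive cells by log2 1.92 ± 0.20 (3.79-fold; limma adjusted p = 5.41e-07) and B cells by 1.45 ± 0.20 (adjusted p = 2.09e-05). The differences of 1.07 in Th1 and 1.01 in Th2 cells passed but lay at the fold threshold, and they fell under it without Th1 replicate 2 (0.87) or 3 (0.95), and without Th2 replicate 3 (0.90) or naive replicate 2 (0.99).

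**Figure D2:**
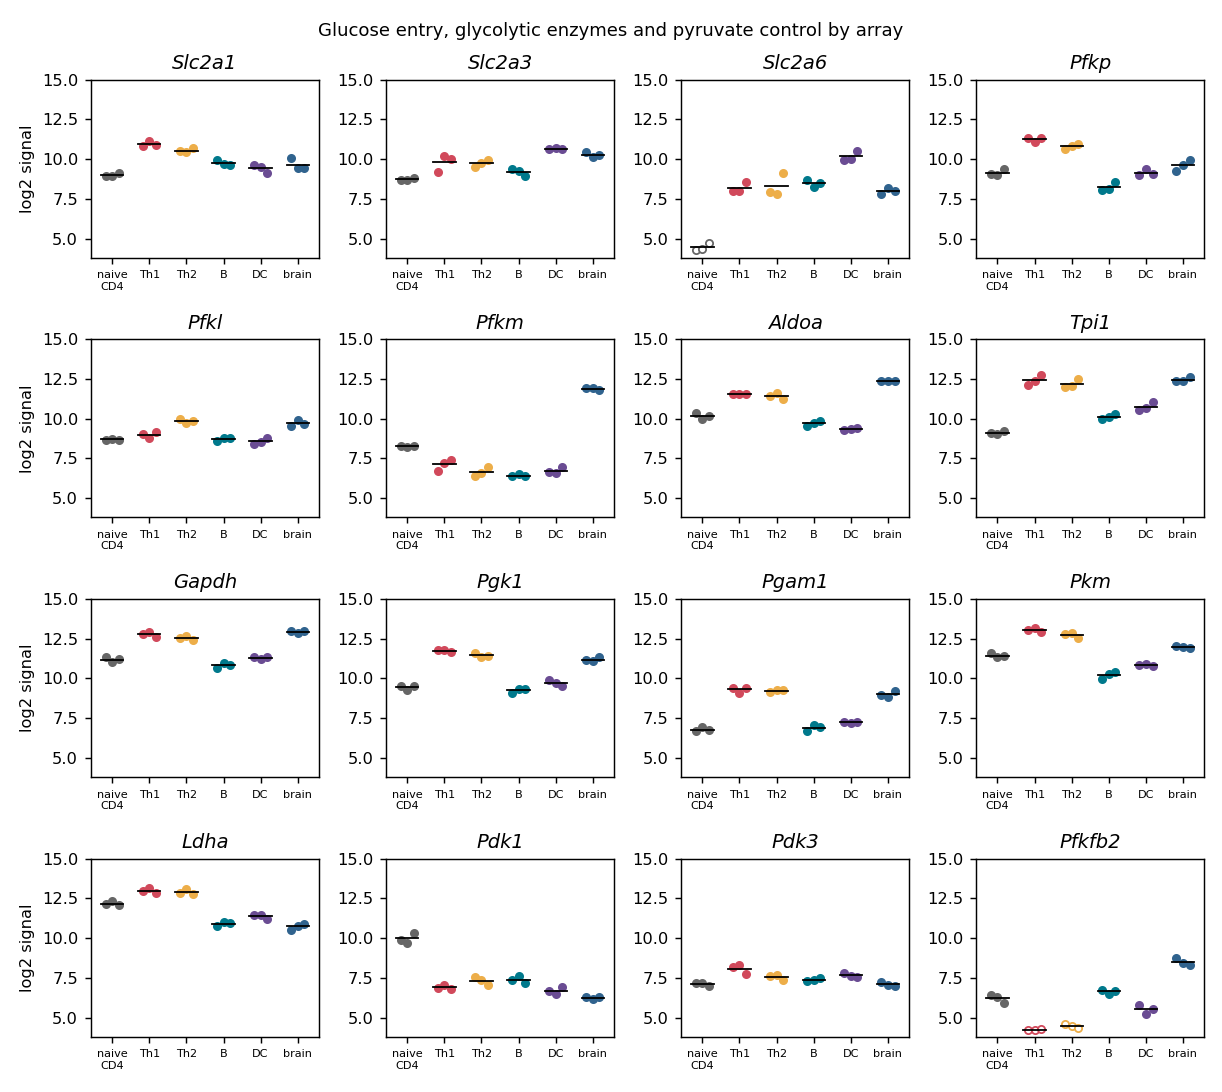
Log2 signal (vertical axis) on every array by group (horizontal axis) for members along the pathway, with a bar at the group mean and open circles where the probe was undetected. Naive CD4 T cells lie lowest for Slc2a6 (4.26 to 4.74) and highest for Pdk1 (9.69 to 10.34).

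Hexokinase phosphorylates glucose on entry. Hk1, the form known from brain and red cells, read 7.18, 6.67 and 6.81 in naive cells, 7.71, 7.11 and 6.99 in Th1 and 7.15, 7.13 and 6.64 in Th2 cells. It was lower in B cells (5.73, 5.70 and 5.90) and dendritic cells (5.67, 5.62 and 5.70), and highest in brain (7.90, 8.15 and 8.19), where no array overlapped the immune ones. Brain exceeded the immune mean by log2 1.57 ± 0.14 (2.97-fold; limma adjusted p = 1.82e-08), beside the erythroid signal of those arrays. The falls in B cells (-1.11 ± 0.18) and dendritic cells (-1.22 ± 0.18) passed, though both lost the fold threshold without background correction (-0.73 and -0.80) and with median scaling (-0.64 and -0.96), and the other Hk1 probe gave -0.56 in B cells, which did not pass. Neither effector T cell group passed for Hk1, at 0.39 and 0.09 (limma adjusted p = 0.0905 and 0.743).

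Hk3, the hexokinase known from myeloid cells, was detected on the 3 dendritic cell arrays and on none of the other 15. It read 8.74, 8.99 and 9.02 there. The naive values were 4.76, 4.36 and 5.04, the Th1 values 4.29, 4.37 and 4.24, the Th2 values 4.51, 5.06 and 4.54, the B cell values 4.59, 4.67 and 5.09 and the brain values 4.25, 4.50 and 4.48, all of them undetected. Dendritic cells were at least 13.0-fold higher than naive cells and at least 14.0-fold higher than B cells. Hk3 passed the detection requirement through the dendritic cell arrays alone. A test of this difference thus gives no support, and no p-value is given. The granulocyte markers, with a summed signal of 37142 to 53795 on these arrays, and the macrophage markers, at 1955 to 3830, moved with Hk3, and their part in its signal was not tested. The fitted call of lower Hk3 in brain (-1.07) came from the dendritic cell arrays within the immune mean, since brain and the other 4 immune groups were all undetected.

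Phosphofructokinase is the committed step, and its 3 subunit genes took different courses. Pfkp, the platelet form, rose from 9.05, 9.02 and 9.38 in naive cells to 11.32, 11.09 and 11.36 in Th1 and 10.61, 10.85 and 10.98 in Th2 cells. Its other values were 8.07, 8.14 and 8.58 in B cells, 9.02, 9.36 and 9.05 in dendritic cells and 9.25, 9.63 and 9.93 in brain, so that the effector T cells lay above all other arrays. The rises were log2 2.11 ± 0.18 (4.32-fold; limma adjusted p = 3.26e-08) and 1.66 ± 0.18 (3.16-fold; adjusted p = 6.32e-07). Another Pfkp probe passed in both, and the dimmest, detected on 3 arrays, did not (0.11 and 0.05). Pfkm, the muscle form, went the other way in the immune cells. It read 8.27, 8.24 and 8.27 in naive cells, and 6.73, 7.24 and 7.43 in Th1, 6.41, 6.61 and 6.95 in Th2, 6.40, 6.50 and 6.39 in B and 6.66, 6.56 and 6.96 in dendritic cells. All 12 of those arrays lay below the naive ones, and brain lay far above every immune array at 11.93, 11.95 and 11.80. Brain exceeded the immune mean by log2 4.85 ± 0.13 (28.9-fold; limma adjusted p = 7.61e-16). Against naive cells Pfkm fell by 1.60 ± 0.17 in Th2, by 1.83 ± 0.17 in B and by 1.53 ± 0.17 on the log2 scale in dendritic cells (limma adjusted p of at most 7.01e-07). The fall of 1.13 ± 0.17 in Th1 cells lost the fold threshold without Th1 replicate 1 (-0.92), without background correction (-0.93) and with the mean of all detected probes (-0.71). Of the 2 other Pfkm probes 1 passed as lower in all 4 of these comparisons. The second, detected on 13 arrays, passed in none of them, with 0.23 in Th1, 0.16 in Th2, -0.87 in B and -0.64 in dendritic cells.

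Pfkl, the liver form, read 8.65, 8.75 and 8.68 in naive cells and stayed between 8.43 and 8.77 on the B and dendritic cell arrays. Th2 cells stood higher, at 9.98, 9.74 and 9.86, against 9.06, 8.77 and 9.18 in Th1 cells and 9.54, 9.92 and 9.68 in brain. The Th2 rise over naive cells was log2 1.16 ± 0.13 (2.24-fold; limma adjusted p = 9.19e-07), and it lost the fold threshold with median scaling (0.81), with the authors' scaled signal (0.92) and with the mean of all detected probes (0.62). The other Pfkl probe differed by only 0.08. Th2 cells exceeded Th1 cells in Pfkl by 0.86 ± 0.13 on the log2 scale with an adjusted p of 0.000209, under the fold threshold.

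The PFKFB enzymes make and remove fructose 2,6-bisphosphate, the activator of phosphofructokinase. Pfkfb4 read 7.76, 7.71 and 7.78 in naive, 7.09, 7.01 and 7.18 in Th1 and 6.72, 6.96 and 7.25 in Th2 cells. It was higher in B cells (8.89, 8.81 and 8.84) and highest in dendritic cells (9.70, 9.68 and 10.36), with brain at 7.54, 7.38 and 7.22. Dendritic cells exceeded naive cells by log2 2.17 ± 0.16 (4.49-fold; limma adjusted p = 7.95e-09). The B cell rise of 1.10 ± 0.16 and the excess of dendritic over B cells of 1.07 ± 0.16 passed, but the latter did not without dendritic cell replicate 3 (0.85) and neither did with the mean of all detected probes (0.54 in both). The dimmer Pfkfb4 probe, detected on 5 arrays, lay between -0.01 and 0.01 in these 3 comparisons. Pfkfb2, the heart form, was read at 6.44, 6.32 and 5.89 in naive and 6.75, 6.50 and 6.70 in B cells, and was undetected on all 6 effector T cell arrays, at 4.25, 4.22 and 4.26 (Th1) and 4.61, 4.50 and 4.34 (Th2). Dendritic cells read 5.78, 5.20 and 5.54 and brain 8.73, 8.41 and 8.32. The effector T cells were thus lowest and brain highest, with no overlap. Pfkfb2 was at least 1.75-fold lower in Th1 and at least 1.76-fold lower in Th2 than in naive cells (limma adjusted p = 2.28e-08 and 1.21e-07), and lower in dendritic than in B cells (-1.14 ± 0.16). The fitted brain difference from the immune mean was log2 3.06 ± 0.13 (adjusted p = 3.86e-13), with 9 of the 15 immune arrays detected. The other Pfkfb2 probe tested, detected on 3 arrays, passed in none of these, with -0.22 in Th1, -0.25 in Th2, -0.15 in dendritic against B cells and -0.0025 in brain. The Th2 and the dendritic cell calls were lost under several alternatives, including no background correction (-0.90 and -0.70 for Pfkfb2).

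**Figure D3:**
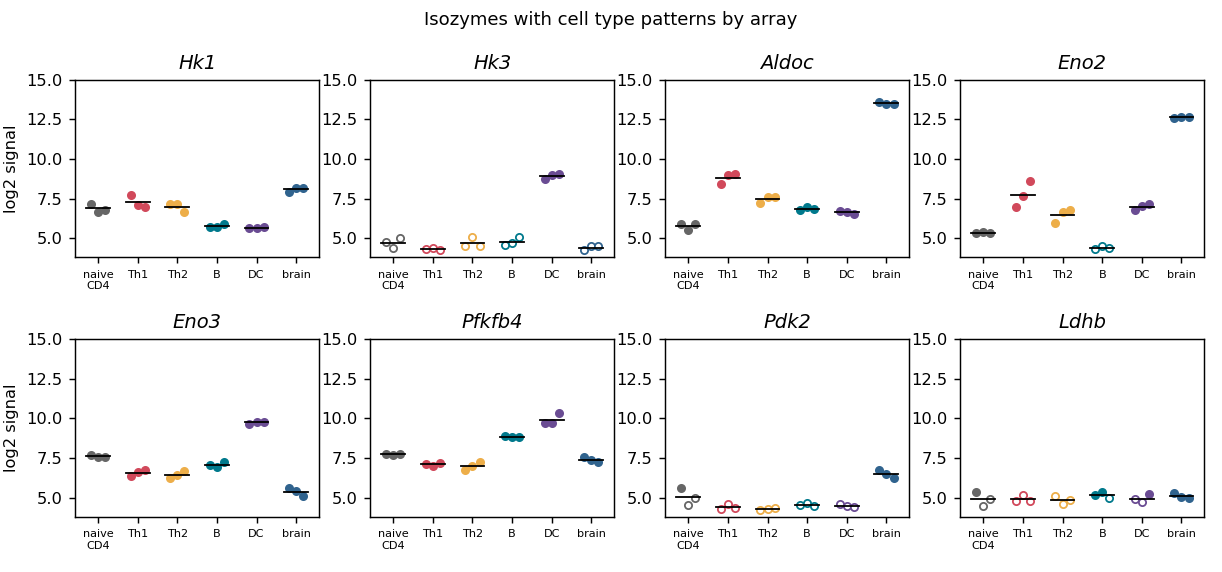
Log2 signal (vertical axis) on every array by group (horizontal axis) for 8 isozyme genes, with a bar at the group mean and open circles where the probe was undetected. Hk3 was detected in dendritic cells alone (8.74 to 9.02), and Eno2 and Eno3 have brain at opposite ends.

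Aldolase splits fructose 1,6-bisphosphate. Aldoa, the muscle and general form, read 10.36, 9.98 and 10.16 in naive, 11.59, 11.59 and 11.56 in Th1, 11.42, 11.65 and 11.23 in Th2, 9.57, 9.72 and 9.84 in B, 9.29, 9.36 and 9.43 in dendritic cells and 12.39, 12.38 and 12.37 in brain. Aldoc, the brain form, read 5.87, 5.55 and 5.88 in naive cells, 8.41, 8.99 and 9.03 in Th1, 7.20, 7.58 and 7.61 in Th2, 6.80, 7.00 and 6.82 in B and 6.71, 6.68 and 6.50 in dendritic cells, and 13.57, 13.47 and 13.48 in brain. For both genes the brain arrays lay above every immune array and the Th1 and Th2 arrays above the other immune groups. The rises over naive cells were log2 1.42 ± 0.12 in Th1 and 1.27 ± 0.12 in Th2 cells for Aldoa, and 3.04 ± 0.16 (8.24-fold) and 1.70 ± 0.16 (3.25-fold) for Aldoc (limma adjusted p of at most 1.04e-07). Aldoc was also higher in Th1 than in Th2 cells by 1.35 ± 0.16 (2.54-fold; limma adjusted p = 1.39e-05), and it rose in B cells by 1.11 ± 0.16 (adjusted p = 2.81e-05). The Th1 and Th2 difference was 0.66 and the B cell rise 0.54 with the mean of all detected probes, and the Th2 rise 0.84, all under the fold threshold. The dimmer Aldoc probe, detected on 3 arrays, gave -0.03 in Th1, -0.02 in Th2 and -0.02 in B cells against naive cells, and 2.24 in brain. All 6 astrocyte markers, which Aldoc is known to accompany, were detected in brain, with a summed signal of 13728 to 15387. In Th1 and Th2 cells the sums of 3078 to 3874 and 2362 to 3002 came from Gja1, a gap junction gene, at 11.71 and 11.34, the only one of the 6 detected on all 3 arrays, while 4 of the 6 were undetected on all of them. The part of these markers in the Aldoc differences was not tested.

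Tpi1, triosephosphate isomerase, rose most of the lower enzymes. It read 9.12, 9.02 and 9.26 in naive cells, 12.14, 12.38 and 12.78 in Th1, 12.02, 12.05 and 12.48 in Th2, 10.02, 10.08 and 10.30 in B and 10.56, 10.65 and 11.08 in dendritic cells, and 12.38, 12.40 and 12.63 in brain. The naive arrays were lowest, and the effector T cells overlapped brain. All 3 Tpi1 probes rose in Th1 and Th2 cells, by log2 1.27 to 3.30. In dendritic cells they disagreed: the brightest rose by 1.63 ± 0.18 and another by 1.45, but the third, also detected on all 18 arrays, fell by 1.08 on the log2 scale, and all 3 passed, so no direction is given for Tpi1 there. In B cells the 3 probes gave 1.00, 1.08 and -0.77. In brain all 3 were above the immune mean, by 1.54, 2.07 and 1.00, and the last of these did not reach the fold threshold.

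Gapdh, the glyceraldehyde phosphate dehydrogenase often used as a reference gene, was not level across these cells. Its values were 11.35, 11.01 and 11.22 in naive, 12.81, 12.92 and 12.60 in Th1, 12.56, 12.69 and 12.41 in Th2, 10.66, 10.96 and 10.83 in B, 11.34, 11.21 and 11.33 in dendritic cells and 13.00, 12.89 and 12.96 in brain. The rises over naive cells were log2 1.58 ± 0.12 (2.99-fold) in Th1 and 1.36 ± 0.12 in Th2 cells, and both passed under every alternative. Pgk1, phosphoglycerate kinase, whose window above holds 2 matches, read 9.50, 9.27 and 9.52 in naive, 11.80, 11.78 and 11.65 in Th1 and 11.64, 11.34 and 11.40 in Th2 cells, and rose by 2.31 ± 0.13 (4.96-fold; limma adjusted p = 1.86e-10) and 2.03 ± 0.13 (4.08-fold; adjusted p = 9.79e-10). The dimmer Pgk1 probe gave 1.23, which passed, and 0.81, which did not. Pgam1, the general phosphoglycerate mutase, read 6.70, 6.91 and 6.74 in naive, 9.42, 9.10 and 9.41 in Th1 and 9.18, 9.26 and 9.28 in Th2 cells, and rose 5.77-fold and 5.50-fold, where the dimmer probe, detected on 5 arrays, gave log2 0.78 and 0.52 and did not pass. In B and dendritic cells Gapdh, Pgk1 and Pgam1 did not pass, with log2 differences from naive cells of -0.37 to 0.46. In brain Gapdh (1.22) and Pgam1 (1.11) passed and Pgk1 (0.87, and -0.36 with the dimmer probe) did not. Neither of the brain calls of Gapdh and Pgam1 held under every alternative. Gapdh dropped to 0.82 under median scaling, and likewise to 0.82 in the signal that the authors had scaled. Pgam1 reached only 0.96 with an offset of 50 and 0.93 without background correction, while its dimmer probe passed at 3.49. Pgk1 in turn passed with cyclic loess (1.40). Brain overlapped the effector T cells in Gapdh and Pgam1, and lay below them in Pgk1, at 11.10 to 11.33. Pgam2, the muscle mutase, was detected on the brain arrays alone (5.12, 5.05 and 5.32, against 4.22 to 4.79 on the 15 immune arrays) and did not reach the fold threshold (0.80). The lowest detected signal was 4.6 on the brain arrays and 4.98 to 5.71 on the immune arrays. Detection in brain alone is thus no difference by itself.

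Enolase makes phosphoenolpyruvate. Eno2, the neuronal gamma form, read 12.57, 12.66 and 12.64 in brain, 5.35, 5.42 and 5.30 in naive, 6.99, 7.66 and 8.60 in Th1, 5.97, 6.68 and 6.78 in Th2 and 6.77, 7.02 and 7.16 in dendritic cells, and was undetected in B cells at 4.31, 4.50 and 4.36. The fitted brain difference from the immune mean was log2 6.43 ± 0.22 (limma adjusted p = 2.81e-14), with 12 of the 15 immune arrays detected. Among immune cells Th1 was highest and its 3 arrays were far apart. Eno2 rose over naive cells by 2.39 ± 0.28 (5.25-fold; adjusted p = 1.69e-06) in Th1, by 1.12 ± 0.28 in Th2 and by 1.63 ± 0.28 in dendritic cells, and was at least 3.67-fold higher in dendritic than in B cells. The Th1 excess over Th2 of 1.27 ± 0.28 (adjusted p = 0.00547) did not pass without Th1 replicate 3 (0.85), without background correction (0.98), with the authors' scaled signal (0.87) or with only these 2 groups in the fit (1.27, limma adjusted p = 0.19). The Th2 rise was 0.67 without background correction and 0.97 without Th2 replicate 3. The dendritic cell rise was 0.96 with the authors' scaled signal, under the fold threshold.

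Eno3, the muscle beta form, stood at the other end in brain. It was highest in dendritic cells, at 9.66, 9.79 and 9.79, and lowest in brain, at 5.59, 5.42 and 5.10. The naive arrays read 7.67, 7.57 and 7.53, the Th1 arrays 6.36, 6.59 and 6.74, the Th2 arrays 6.22, 6.41 and 6.67 and the B cell arrays 7.05, 6.95 and 7.24, and the dendritic cell, the brain and the naive arrays each stood clear of the other groups. Dendritic cells exceeded naive cells by log2 2.15 ± 0.14 (4.45-fold; limma adjusted p = 1.71e-09) and B cells by 2.66 ± 0.14 (6.34-fold; adjusted p = 1.73e-10), again beside the granulocyte and macrophage signal of those arrays. Brain fell by 2.12 ± 0.11 on the log2 scale below the immune mean (adjusted p = 1.17e-11). The falls in Th1 (-1.03) and Th2 cells (-1.16) passed, but without background correction they were -0.78 and -0.87.

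Pkm, pyruvate kinase, read 11.59, 11.34 and 11.41 in naive cells, 13.08, 13.18 and 12.93 in Th1, 12.80, 12.86 and 12.53 in Th2, 9.99, 10.26 and 10.41 in B, 10.85, 10.94 and 10.77 in dendritic cells and 12.05, 11.96 and 11.92 in brain. It rose by log2 1.62 ± 0.12 (3.07-fold) in Th1 and 1.28 ± 0.12 in Th2 cells and fell by 1.23 ± 0.12 on the log2 scale in B cells (limma adjusted p = 9.21e-09, 1.69e-07 and 5.12e-07). The B cell call was lost with median scaling (-0.40), with cyclic loess (-0.99), with the authors' scaled signal (-0.96) and with the mean of all detected probes (-0.78). The Th2 call was also lost with the mean of all detected probes (0.76). Which splice forms of Pkm the probes read was not checked here. The dimmer Pkm probe, detected on 12 arrays, gave 0.47 in Th1, 0.23 in Th2 and -0.33 in B cells, none passing, and it passed as lower in brain (-1.42) where the brighter one did not (0.31).

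Ldha, lactate dehydrogenase A, read 12.14, 12.32 and 12.07 in naive cells, 12.95, 13.15 and 12.84 in Th1, 12.87, 13.07 and 12.77 in Th2, 10.74, 11.03 and 10.98 in B, 11.47, 11.47 and 11.19 in dendritic cells and 10.54, 10.78 and 10.88 in brain. The T cells lay above all other arrays, naive cells included. Ldha did not reach the fold threshold in Th1 (0.80 ± 0.13; limma adjusted p = 6.47e-05) or Th2 cells (0.73), although the groups did not overlap, and the Th1 value passed with the authors' scaled signal (1.11), with cyclic loess (1.11) and with median scaling (1.17). It fell by 1.26 ± 0.13 in B cells (-0.42 with median scaling) and by 1.34 ± 0.10 on the log2 scale in brain (-0.43 with cyclic loess). Ldhb, the heart form, was dim throughout, at 4.49 to 5.38 on the 15 immune arrays and 4.99 to 5.28 in brain, was detected on 7 arrays and passed in no comparison. Slc16a3 (MCT4, the lactate exporter) was detected on 4 arrays, at 4.37 to 5.35 on the immune and 4.40 to 4.48 on the brain arrays, and did not pass, but its other probe was higher in Th1 than in naive cells by 1.39.

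The pyruvate dehydrogenase kinases switch off pyruvate dehydrogenase, the enzyme that uses pyruvate inside the mitochondria. Pdk1 was highest in naive cells, at 9.91, 9.69 and 10.34. It read 6.89, 7.05 and 6.79 in Th1, 7.55, 7.36 and 7.07 in Th2, 7.35, 7.63 and 7.16 in B and 6.70, 6.46 and 6.92 in dendritic cells, and 6.27, 6.20 and 6.29 in brain. No other array came within 2 log2 units of the naive ones. The log2 change of Pdk1 was -3.07 ± 0.17 in Th1 (8.42-fold lower), -2.66 ± 0.17 in Th2 (6.31-fold), -2.60 ± 0.17 in B (6.07-fold) and -3.29 ± 0.17 in dendritic cells (9.79-fold), with limma adjusted p of at most 2.71e-09. The other Pdk1 probe gave -3.02, -2.61, -2.02 and -3.08 in the same 4 comparisons, all passing, and the 4 calls of the brighter probe held under every alternative. All 4 comparisons rest on the same naive arrays. The lower value in brain against the immune mean (-1.40) was lost under 4 alternatives, at -0.44 with median scaling, and the other probe gave -0.27.

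Pdk3 read 7.17, 7.17 and 7.00 in naive, 8.16, 8.29 and 7.75 in Th1, 7.60, 7.69 and 7.36 in Th2, 7.29, 7.37 and 7.47 in B and 7.83, 7.63 and 7.57 in dendritic cells, and 7.25, 7.03 and 7.01 in brain. Its difference of log2 0.96 ± 0.14 in Th1 cells (limma adjusted p = 1.6e-05) lay just under the fold threshold. Pdk2 read 6.72, 6.47 and 6.26 in brain and 5.62, 4.56 and 4.97 in naive cells, where it was detected on 1 array, and was undetected at 4.21 to 4.63 on the 12 arrays of the other immune groups. The fitted brain difference of Pdk2 from the immune mean was 1.93 ± 0.15, with 1 of the 15 immune arrays detected. Pdk2 passed the detection requirement through the brain arrays, so a test of brain gives no support and no p-value is given. Pdk4, the starvation-induced kinase, was detected on the brain arrays alone, at 6.35, 5.22 and 5.05 against 4.18 to 4.50, at least 1.24-fold higher, and brain replicate 1 lay above the other two. Without that array the log2 difference was 0.86, under the fold threshold. Pdk4 too passed the detection requirement through the brain arrays. Those arrays detected signals from 4.6 up, and the immune arrays from 4.98 to 5.71 up.

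Isozymes were set against each other within each array, as the log2 ratio of their signals, and only differences of that ratio between groups are read. Of 19 listed pairs 11 had both members tested, and 5 of these had both members detected on all 18 arrays. Both contrasts, brain against the 15 immune arrays and Th1 with Th2 against naive arrays, used a two-sided exact permutation test over arrays, whose smallest possible p is 0.00245 in the first and 0.0238 in the second. That made 22 tests in all, and p-values were also adjusted (Benjamini-Hochberg) over the 11 pairs of each contrast. The smallest p became 0.00539 in the first and 0.0327 in the second. The first contrast treats arrays of 5 immune groups as exchangeable, and the second treats the 6 Th arrays as independent, although same-numbered Th1 and Th2 arrays deviated together. With those averaged to 3 values against 3, an alternative added after seeing the data, the smallest possible p is 0.1, and all 5 Th differences below stood at it, so none of them passed. The ratio of Pfkm to Pfkl was 2.02 to 2.39 in brain and -3.58 to -0.38 on the immune arrays, 17.3-fold higher in brain (difference 4.11, exact p = 0.00245). In the effector T cells it was -3.58 to -1.53, below the naive range of -0.51 to -0.38 (difference -2.10, exact p = 0.0238). Th2 cells were the lowest group, at -3.20 ± 0.34 (SD, n = 3).

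Pfkp over Pfkl had separate ranges in Th1 and Th2 cells. It was 2.17 to 2.32 in Th1 and 0.62 to 1.12 in Th2 cells, against 0.27 to 0.69 in naive cells, so that Th2 overlapped the naive range while Th1 did not. The joint difference was 1.15 (exact p = 0.0476, adjusted 0.0524, which did not pass), and the unadjusted p was 0.0714 (difference 1.00 to 1.25) when Th1 replicate 1, 2 or 3 or Th2 replicate 2 or 3 was left out. The difference between the subsets in this ratio was not tested. Between Th1 and Th2 cells the Pfkl probe used here gave -0.86, the other Pfkl probe -0.21 and Pfkp 0.45, none passing. Aldoc over Aldoa was 1.09 to 1.19 in brain against -4.48 to -2.54 in immune cells (difference 4.47, 22.2-fold; exact p = 0.00245). The Th difference of 1.03 (exact p = 0.0238) reversed to -0.17 with the mean of all detected probes, and under 5 other alternatives, where it was 0.086 to 0.90, it did not pass. Pdk3 over Pdk1 rose from -3.35 to -2.52 in naive cells to 0.05 to 1.27 in Th1 and Th2 cells (difference 3.56, 11.8-fold; exact p = 0.0238), and also stood at -0.26 to 1.17 in B and dendritic cells. The brain difference in this ratio did not pass (0.95, exact p = 0.25). Slc2a3 over Slc2a1 was highest in dendritic cells, at 1.01 to 1.50, followed by brain at 0.37 to 0.81, and was -0.36 to -0.24 in naive and -1.68 to -0.69 in Th1 and Th2 cells (difference -0.69, exact p = 0.0238). The other 6 pairs had a member undetected on all arrays of at least 1 group, so their ratios hold background in place of a level and are not read.

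**Figure D4:**
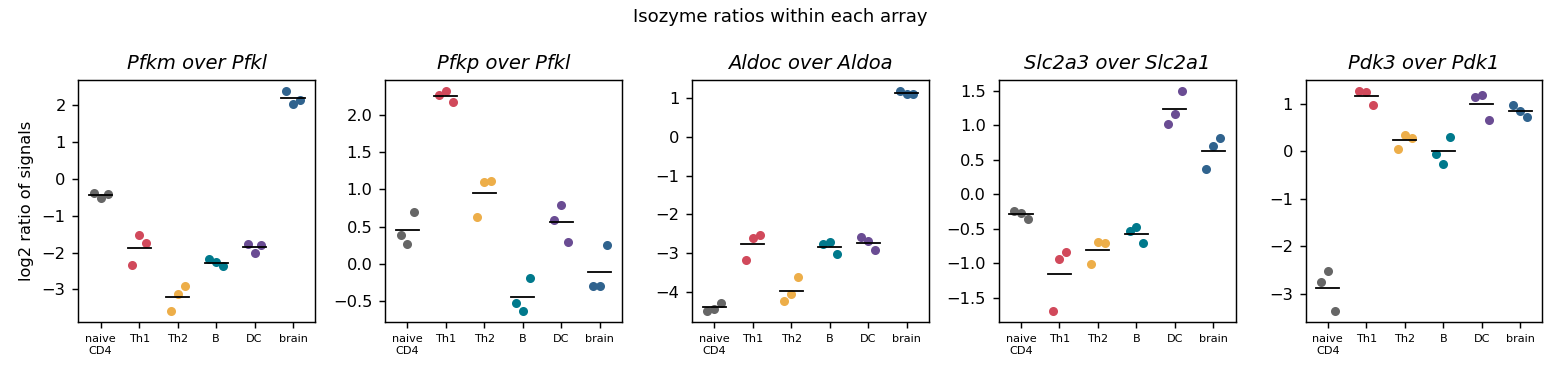
Log2 ratio of the signals of 2 isozymes (vertical axis) on every array by group (horizontal axis), with a bar at the group mean. Brain stands above all immune arrays for Pfkm over Pfkl (2.02 to 2.39) and Aldoc over Aldoa (1.09 to 1.19).

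The genes around glycolysis came from lists of 8 kinds. Their counts stand against all-gene shares called of 28.4% in Th1, 27.0% in Th2, 14.2% in B and 23.0% in dendritic cells against naive cells, 4.50% between Th1 and Th2, 14.7% between dendritic and B cells and 52.3% in brain. Of 17 listed regulators 13 were tested, and in Th1 cells 3 were higher and 2 lower than in naive cells, where 13.0% of all genes were higher and 15.4% lower. Egln3, an oxygen-sensing prolyl hydroxylase, lay below detection in naive cells and was at least 74.0-fold higher in Th1 cells, and Hif1a, the oxygen-regulated subunit of HIF-1, went from 6.76 ± 0.10 to 9.99 ± 0.35 (SD, n = 3; log2 difference 3.23 ± 0.22 SE, limma adjusted p = 2.7e-09). Myc rose by 3.23 ± 0.28, while Txnip, which restrains glucose uptake, fell by 5.18 ± 0.38 and Arnt, the partner of Hif1a, by 1.93 ± 0.12 on the log2 scale. In Th2 cells 4 were higher, Egln3 (at least 47.8-fold), Myc (3.27), Hif1a (2.52) and Epas1 (1.41), and 2 lower, Txnip (-5.36) and Arnt (-1.59), while Mtor did not pass (-0.38, adjusted p = 0.0259). Between the subsets Epas1 was at least 1.62-fold lower in Th1 cells. Of the 13, 0 passed in B cells against naive cells with limma, where 5 had an unadjusted p under 0.05, 1 passed in dendritic cells (Vhl, 1.42), and Myc was lower in dendritic than in B cells (-1.42). In brain Vhl was higher (2.26) and 5 regulators were lower, among them Myc (at least 9.29-fold), Txnip (-2.47) and Mlxip (-2.32).

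Of 9 genes of pyruvate dehydrogenase and the mitochondrial pyruvate carrier 6 were tested. In brain 5 were higher, led by Dld (3.09), Dlat (1.86) and the phosphatase Pdp1 (1.41), and Pdp2 was lower (-1.32). Pdp1, which opposes the kinases above, was the only one of the 6 that passed in Th1 (1.27 ± 0.15) and Th2 cells (1.34 ± 0.15), and Pdha1 the only one in B (-1.05) and dendritic cells (-1.41). Of 8 pentose phosphate genes 6 were tested. Tkt, transketolase, was higher in Th1 (1.25) and Th2 cells (1.41), H6pd (-1.72 and -1.27) and Rpe (-1.56, and at least 2.59-fold) were lower, and 3 did not pass in either. Taldo1, transaldolase, was higher in dendritic cells than in naive (1.72) and B cells (1.40), Pgls was higher (1.32) and H6pd lower (-1.13) in B cells, and 4 were lower in brain, led by Pgls (-2.61), Rpia (-2.59) and H6pd (-2.36).

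Of 16 genes of the citric acid cycle 14 were tested. Of these, 2 passed in Th1 (Mdh2 1.12, Ogdh -1.50), 1 in Th2 (Ogdh -1.56), 2 in B (Fh1 1.34, Sdhd 1.03) and 2 in dendritic cells (Mdh2 2.18, Sdhd 1.09) against naive cells, and Mdh2 passed against B cells (1.24). In brain Sdhd (2.78) and Idh3a (2.42) were higher and Suclg2 lower (-1.40). Of 10 glycogen genes 8 were tested, and Pygl, the liver glycogen phosphorylase, read 10.44 ± 0.15 (SD, n = 3) in dendritic cells, against 4.85 ± 0.51 in naive cells, where it was detected on 1 of 3 arrays, and 5.60 ± 0.22 in B cells. Its difference from B cells was log2 4.84 ± 0.31 (28.7-fold; limma adjusted p = 1.5e-09), beside the granulocyte signal of the dendritic cell arrays. Gyg was higher in dendritic than in naive cells (1.20), and Pygb, the brain form, was higher in brain (1.56) and lower than in naive cells in Th2 (-1.65) and B cells (-1.22). Of 10 genes of the hexosamine, polyol and glycerol branches 5 were tested. Uap1 passed in Th1 (1.66), Gpd2 in B (1.07) and Gfpt1 in dendritic cells against naive (1.68) and B cells (1.51). Gpd1 was at least 1.34-fold higher in brain. It passed the detection requirement through the brain arrays alone, so a test of brain gives no support. Of 10 other sugar transporters 2 were tested, and Slc2a9 was lower than in naive cells in Th1 (at least 1.17-fold), Th2 (at least 1.18-fold) and dendritic cells (at least 1.51-fold). Slc2a9 passed the detection requirement through the 3 naive arrays, with 1 further array in B cells. A test against naive cells thus gives it no support. Of 7 gluconeogenesis genes 2 were tested, and 0 passed in any of the 7 comparisons with limma, while at most 2 had an unadjusted p under 0.05 in 1 comparison (brain).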

How the data were processed

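Total RNA of mouse immune cells and whole brain was extracted with TRI reagent and read on Illumina mouse BeadChips, as the labels' protocols say. The submitters' processing notes name GenomeStudio, giving neither its role nor its version. Per the file headers, the deposited intensity values are linear probe signals without background subtraction, and the deposited detection p-value ranks a probe against background, as its header names it. The scaled intensity values that the authors deposited equal these signals times 1 factor per array, with a mean of 229 on every array and column medians of 38.8 to 61.0. They are linear and uncentred.

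Samples were grouped by title, 3 arrays in each of 6 groups. No 2 arrays shared more than 1 identical value, and 0 columns of per-sample values were left unused. Whether replicates came from separate animals is given only as biological replicates in the design text, and the sources used here name no slide or scan date, so neither could be tested as a batch. Of 45281 probes 34885 had 1 gene symbol in the platform annotation, 18 had several and 10378 had none listed. The 34807 probes whose gene ID matched the RefSeq gene table (GRCm38.p6) were named through it, and the promoter windows come from the same RefSeq build.

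A normexp model, with negative controls inferred from the detection p-values, corrected the background. After adding an offset of 16 the arrays were quantile-normalised and put on a log2 scale (limma 3.58.1, R 4.3.3; tables and plots in Python 3.11.15 with pandas 2.3.3). The offset understates folds of dim genes. The probe with the highest mean among those detected on at least 3 arrays stood for a gene, and 13 of the 27 members had others. A linear model with 6 group means over 18 arrays (lmFit and eBayes) was fitted to 12094 genes. On data simulated for Th1 against naive cells over these genes, the fit called 47 of 50 genes changed by log2 1.5, 50 of 50 at each of 2, 3 and -3, and 3 of 11894 unchanged ones. The simulated noise was normal and independent between arrays, changes were made in Th1 alone, and no detection limit was modelled. These rates thus need not hold for the measured arrays. A lower bound sets the bright group's mean against the dim group's mean of, per array, the lowest detected signal or the probe's own where higher. The precision is limited by 3 arrays a group. Isozyme ratios were tested by exact permutation.

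The members, gene lists and tests were chosen with earlier results of these data known. Values on every array are given for members among the 5 largest passing changes of a comparison and their isozymes, and up to 3 passing genes and 1 other of each surrounding list are named. Further list members were named after their values were seen, where few passed. Alternatives covered the background correction, offset, scaling, the authors' scaled signal, the detection filter, the probe for a gene, the arrays in the fit, the variance model, a replicate block and leaving out each array. Replicate numbers in the titles paired Th1 with Th2 arrays, since their correlation exceeded 0.1 at all 3 numbers (r = 0.592, 0.316 and 0.675 over genes), which held for no other 2 groups.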

Additional observations from a re-analysis of the deposited data

How the results depend on the processing

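Over the 7 comparisons, 114 of 123 alternative counts of passing members lay within 1.5 times the main count. The count for B against naive cells was 9, and fell to 5 without background correction, with an offset of 50 and with the authors' scaled signal, and to 4 with the mean of all detected probes. The Th1 against Th2 count of 2 became 1 without background correction, with the authors' scaled signal, with the mean of all detected probes and with only the compared groups in the fit. Leaving out 1 array at a time gave counts of 13 to 15 for brain, 14 to 16 for Th1, 15 to 17 for Th2, 7 to 10 for B cells, 10 for dendritic cells, 6 to 8 for dendritic against B cells and 1 to 2 for Th1 against Th2 (1 without Th1 replicate 3). The replicate block that pairs Th1 with Th2 arrays left the count at 2 for that comparison and changed none of the other 6. Of the members' single values, 1574 kept their direction and side of the threshold, 99 no longer passed, 24 newly passed and 0 reversed.

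The Th difference of Aldoc over Aldoa (1.03) was 0.45 without background correction, 0.53 with an offset of 50, 0.68 with median scaling, 0.90 with cyclic loess, 0.086 with the authors' scaled signal and -0.17 with the mean of all detected probes. With single arrays left out, Pfkp over Pfkl ranged from 1.00 to 1.34 in Th and from -1.04 to -0.75 in brain (exact p = 0.0471 without B cell replicate 2), and Slc2a3 over Slc2a1 in brain from 0.85 to 1.07 (exact p = 0.0353 without dendritic cell replicate 3). With Th1 and Th2 arrays paired by number and averaged, an alternative chosen after seeing the data, the Th differences stayed at -2.10 (Pfkm over Pfkl), 1.15 (Pfkp over Pfkl), 1.03 (Aldoc over Aldoa), -0.69 (Slc2a3 over Slc2a1) and 3.56 (Pdk3 over Pdk1), with exact p = 0.1, the smallest that 3 against 3 can give. The causes of the other changes were not tested.

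Median scaling moved the median of all 12094 genes from -0.15 to 0.46 in brain, from -0.03 to 0.33 in B cells and from -0.04 to -0.23 for dendritic against B cells, and in brain cyclic loess gave 0.21 and the authors' signal 0.16. The members' split in B cells, 4 higher and 5 lower, became 7 and 2 with median scaling, and in brain 11 and 4 became 15 and 2 with cyclic loess. Over all genes the brain split of 3113 higher and 3214 lower became 4504 and 1977 with median scaling, and that in B cells went from 883 and 837 to 2213 and 416. Without background correction fewer genes passed, 290 in place of 544 for Th1 against Th2, 1121 in place of 1720 for B, 1812 in place of 2785 for dendritic cells and 1169 in place of 1783 for dendritic against B cells. Signal near background limits the dim members, whose folds are lower bounds.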
